A study of Mus musculus with 6 samples.

Results

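The genes described here encode the 2 chains of major histocompatibility complex (MHC) class I molecules. They were the light chain gene B2m and the heavy chain genes H2-K1, H2-D1, H2-Q4, H2-Q6, H2-Q7, H2-T22, H2-T23 and H2-M3, 9 of the 54966 features of the expression table, found there by gene symbol. The table held 3 libraries from old and 3 from young wild-type mice. Each library was made from muscle macrophages, sorted for CD11b, for the macrophage antigen that Adgre1 encodes and for little Ly6C, 3 days after barium chloride had been injected to injure the muscle. The labels give neither the ages, the strain nor the sex of the mice, nor do they say whether replicates were separate animals. The p-values therefore reflect variation among these 6 libraries only, and that variation may be technical. Values are FPKM, fragments per kilobase of exon scaled to library size, as the authors deposited them. Fragment totals recovered from the table lay between 16543907 and 19400942 per library. The library sizes behind the FPKM, recovered likewise, were not these totals. They lay below the total in every old library (18334793 against 19400942 in old replicate 3). In every young library they lay above it (17031222 against 16997934 in young replicate 3). Taken alone, this offset between the groups raises old FPKM relative to young. Its part in the changes below was not tested, and changes under other scalings are given at the end.

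A class I molecule is a polymorphic membrane-bound heavy chain paired with beta-2 microglobulin, the product of B2m. It carries a short peptide, most often cut from the cell's own proteins by the proteasome, to the surface for inspection by CD8 T cells and natural killer cells. H2-K1 and H2-D1 encode the classical, highly expressed heavy chains of the mouse. The remaining heavy chains are nonclassical and less polymorphic. Nearly every nucleated cell makes class I molecules, and interferons raise their transcription in many cell types, macrophages included.

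B2m and both classical heavy chains were among the most abundant transcripts of these macrophages and had higher values in every old library than in any young library. B2m, on chromosome 2 (ENSMUSG00000060802, chr2:122147686-122153083, plus strand, GRCm38), had 4366, 3936 and 4633 FPKM in old replicates 1 to 3, against 3133, 3128 and 3137 FPKM in young replicates 1 to 3. H2-D1 (ENSMUSG00000073411, chr17:35262730-35267499, plus strand) had 1658, 1286 and 1613 FPKM in the old libraries, against 1043, 1036 and 1018 FPKM in the young ones. H2-K1 (ENSMUSG00000061232, chr17:33996017-34000347, minus strand) had 1171, 803 and 1114 FPKM in the old libraries, against 671, 694 and 687 FPKM in the young ones. For all 3 genes old replicate 2 was the lowest old library and stood closest to the young group, whose libraries lay close together. The coefficient of variation of B2m was 8.16% among old and 0.139% among young libraries, and that of H2-K1 was 19.3% among old and 1.78% among young libraries.

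On the log2(FPKM + 1) scale the change, old minus young, was 0.46 for B2m (SE 0.11), 0.55 for H2-D1 (SE 0.12) and 0.57 for H2-K1 (SE 0.15). The ratio of the group means was 1.38 for B2m, 1.47 for H2-D1 and 1.504 for H2-K1. None of the 3 changes passed limma's test across all genes, with Benjamini-Hochberg adjusted p-values of 0.172 for B2m, 0.159 for H2-D1 and 0.190 for H2-K1. In bulk RNA of this kind, fewer cells of a type and less RNA per cell cannot be told apart. After quantile normalization, which sets the values at each rank equal in all libraries, the log2 change of B2m was 0.002755. B2m ranked 6, 9 and 7 among all features in the old libraries and 8, 7 and 7 in the young ones.

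**Figure D1:**
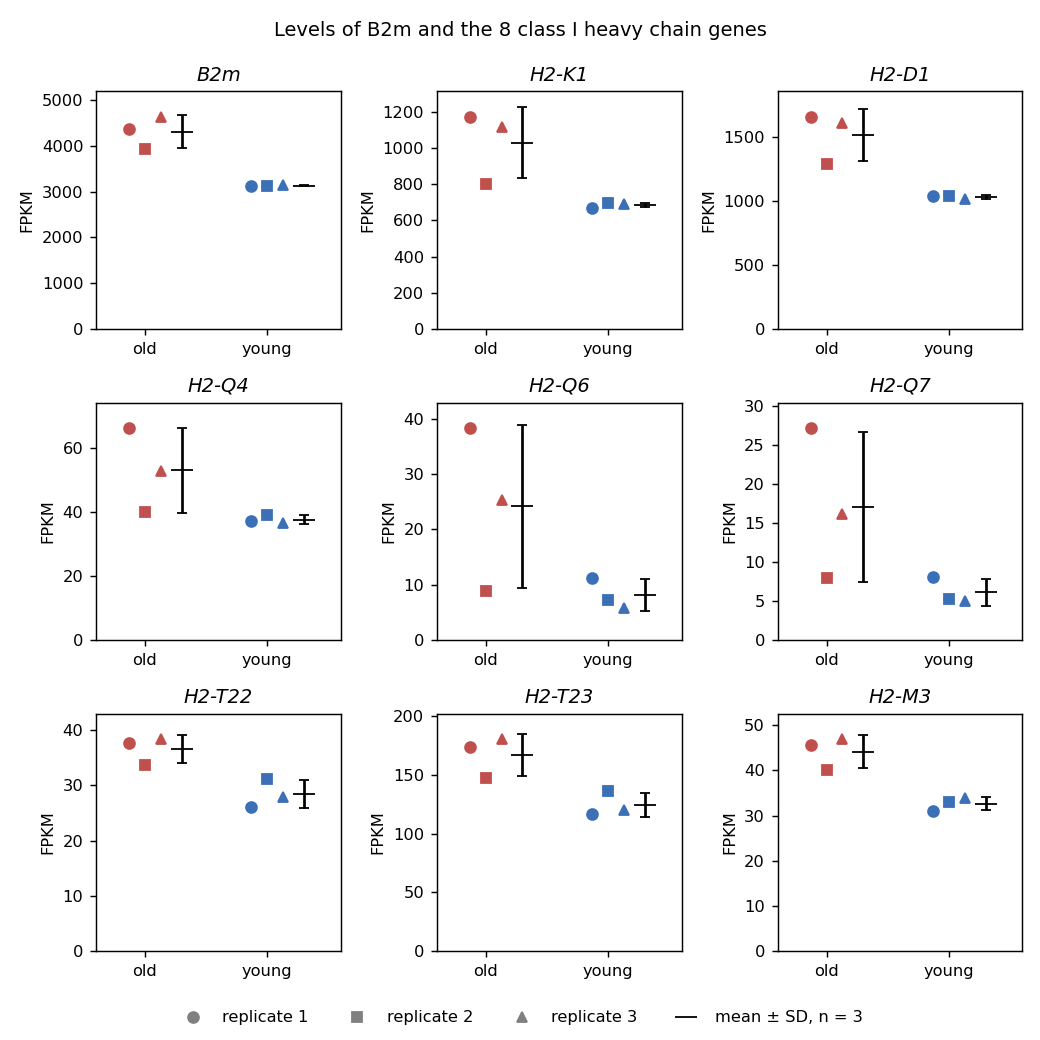
FPKM (vertical axes, each from 0) of the 9 class I genes in the old and young libraries, 1 point per library with the marker giving the replicate number, and the mean ± SD (n = 3) beside the points. All old libraries lie above all young libraries for 7 genes, H2-Q6 and H2-Q7 overlap, and old replicate 2 is the lowest old library in all 9 panels.

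The H2-Q genes lie next to each other on chromosome 17, and their products include Qa-2, a nonclassical molecule found at the cell surface and in secreted forms. H2-Q6 (ENSMUSG00000073409, chr17:35424850-35430055, plus strand) had 38.3, 8.83 and 25.3 FPKM in old replicates 1 to 3, against 11.3, 7.30 and 5.83 FPKM in young replicates 1 to 3. H2-Q7 (ENSMUSG00000060550, chr17:35439155-35443773, plus strand) had 27.2, 8.02 and 16.2 FPKM in the old libraries, against 8.14, 5.24 and 4.997 FPKM in the young ones. Old replicates 1 and 3 stood far above the rest for both genes, while old replicate 2 lay within the young range of both. The fragments behind these values numbered 1427, 317 and 969 in the old libraries and 436, 256 and 207 in the young libraries for H2-Q6.

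These 2 genes had the largest log2 changes of the family and the widest intervals. The change of H2-Q6 was 1.29 (95% confidence interval 0.13 to 2.45), with a limma adjusted p of 0.297, and that of H2-Q7 was 1.22 (0.29 to 2.15), with a limma adjusted p of 0.238. Old replicate 2 stood at 1.08 times the young mean for H2-Q6, whereas the mean of old replicates 1 and 3 stood at 3.91 times the young mean. For H2-Q7 the same ratios were 1.31 for old replicate 2 and 3.54 for old replicates 1 and 3. Without old replicate 1 the log2 change of H2-Q6 was 0.86, and without old replicate 2 it was 1.86.

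Ly6c2, which with Ly6c1 encodes the Ly6C antigen that the sort selected against, had 7.68, 2.46 and 6.99 FPKM in the old libraries, against 3.20, 2.32 and 1.31 FPKM in the young ones. The high libraries of Ly6c2 were old replicates 1 and 3, as for H2-Q6 and H2-Q7, and its log2 change was 0.97 (limma adjusted p = 0.305). Ly6c1, too low to be tested, had 0.0667, 0.104 and 0.0325 FPKM in the old libraries and 0.484, 0.213 and 0.105 FPKM in the young ones, all old values below all young ones. Ccr2, another gene of recently recruited monocytes, had 31.2, 22.2 and 21.4 FPKM in the old libraries and 26.5, 37.6 and 48.6 FPKM in the young ones, which is the opposite order of the group means (log2 change -0.55, and -0.35 without young replicate 3). The part of residual Ly6C-positive cells in the H2-Q values was not tested.

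H2-Q4 (ENSMUSG00000035929, chr17:35379617-35385290, plus strand), which encodes the Qb-1 heavy chain, had 66.1, 39.8 and 52.7 FPKM in the old libraries, against 37.0, 39.1 and 36.6 FPKM in the young ones. The groups did not overlap, but old replicate 2 exceeded the highest young library by a margin smaller than the young SD of 1.30 FPKM. Its log2 change was 0.45 (SE 0.17), with a limma adjusted p of 0.283. Without old replicate 1 the log2 change of H2-Q4 was 0.28.

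Among the more telomeric genes, H2-T23 encodes Qa-1, which shows leader peptides of other class I heavy chains to the CD94/NKG2A receptor of natural killer cells. H2-T23 (ENSMUSG00000067212, chr17:36029773-36032855, minus strand) had 173, 147 and 180 FPKM in the old libraries, against 117, 136 and 120 FPKM in the young ones. H2-T22 (ENSMUSG00000056116, chr17:36037128-36042747, minus strand), whose product is a ligand of some gamma delta T cell receptors, had 37.7, 33.6 and 38.3 FPKM in the old libraries, against 26.1, 31.1 and 27.9 FPKM in the young ones. For both genes old replicate 2 was the lowest old and young replicate 2 the highest young library, and no old library lay below a young one. The log2 change was 0.42 for H2-T23 (SE 0.10) and 0.35 for H2-T22 (SE 0.09), each with a limma adjusted p of 0.178.

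H2-M3 (ENSMUSG00000016206, chr17:37270220-37274484, plus strand) encodes a heavy chain that presents N-formylated peptides, as found at the start of bacterial and mitochondrial proteins. It had 45.6, 40.0 and 46.9 FPKM in the old libraries, against 31.1, 33.0 and 34.0 FPKM in the young ones. All old libraries lay above all young ones, and old replicate 2 was again the lowest of them. The log2 change of H2-M3 was 0.42 (95% confidence interval 0.23 to 0.61), with the smallest unadjusted limma p of the family (0.00117) and a limma adjusted p of 0.141. A two-sided exact permutation test on 3 against 3 libraries gave p = 0.1 for H2-M3 and the other 6 genes without overlap, the smallest value it can give, and p = 0.2 for H2-Q6 and H2-Q7.

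All 9 genes had a positive log2 change, beside 53.1% of all tested genes. Their median was 0.46, beside 0.01 over the 11108 genes tested, which averaged 1 FPKM or more. None of the 9 passed an adjusted p of 0.05 in limma, where 2 genes in all were called higher in old (0.018% of those tested), and none passed with limma voom on the recovered fragments. At an unadjusted limma p of 0.05 the count was 9 of 9, beside 8.84% of all tested genes in that direction. In the other direction 686 of the 11108 tested genes had such a p. The old libraries lay above all young libraries for 7 of 9 genes, beside 12.3% of all tested genes. Among those 7 genes the ratio of the group means was 1.29 to 1.504, and for all 9 it was 2.97 at most. The genes were measured in the same 6 libraries and moved together across them, so the 9 are not independent observations. The shares of all tested genes given here also stand beside the counts of neighbours and lists below.

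Old replicate 2 was the lowest old library for 9 of 9 class I genes, beside 34.6% of all tested genes. Old replicate 1 was the highest for 5 of them (H2-K1, H2-D1 and the 3 H2-Q genes) and old replicate 3 for the other 4 (B2m, H2-T22, H2-T23 and H2-M3). The SD of log2(FPKM + 1) was larger among old than among young libraries for 8 of 9 genes, beside 50.5% of all tested genes. Relative to its mean over all 6 libraries, the average class I gene stood at 0.60, -0.07 and 0.43 on the log2 scale in old replicates 1 to 3, against -0.26, -0.31 and -0.39 in young replicates 1 to 3. Old replicate 2 thus lay between the other old libraries and the young group.

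**Figure D2:**
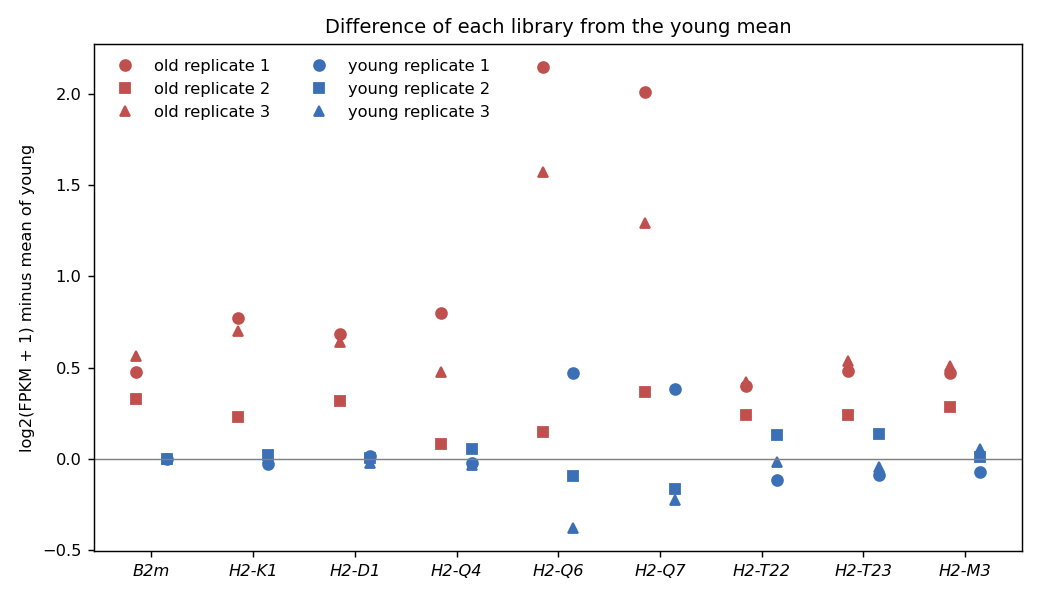
Difference of each library from the mean of the young libraries, in log2(FPKM + 1) units (vertical axis), for each class I gene (horizontal axis), with old libraries left of young ones and the marker giving the replicate number. Old replicate 2 is the lowest old point in every gene, and the spread of the old points is widest for H2-Q6 and H2-Q7.

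The order of the mean FPKM, which are per length, was the same in old and young libraries. B2m was followed by H2-D1, H2-K1, H2-T23, H2-Q4, H2-M3, H2-T22, H2-Q6 and H2-Q7. Neighbours in this order whose library values overlapped were H2-Q4 with H2-M3, H2-T22 with H2-Q6, and H2-Q6 with H2-Q7 in old, and H2-Q6 with H2-Q7 in young. H2-D1 ranked 18, 20 and 18 among all features in the old libraries and 22, 24 and 25 in the young ones. H2-K1 ranked 23, 42 and 26 in the old libraries and 46, 44 and 45 in the young ones, so that old replicate 2 stood closer to the young ranks.

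The 8 heavy chains summed to 3217, 2366 and 3087 FPKM in old replicates 1 to 3, against 1944, 1983 and 1935 FPKM in young replicates 1 to 3. The old mean was 2890 ± 458 FPKM and the young mean 1954 ± 25.4 FPKM (SD, n = 3 each), a ratio of 1.48 with no overlap. H2-D1 made up 52.7% ± 1.47 of this sum in old and 52.8% ± 0.726 in young libraries, and H2-K1 35.5% ± 1.35 in old and 35.0% ± 0.514 in young (SD, n = 3 each). H2-T23 took 5.81% in old and 6.36% in young, and H2-Q6 and H2-Q7 took 0.795% and 0.569% in old and 0.417% and 0.314% in young. Of the 8 shares none separated the groups, and exact permutation tests gave p-values of 0.2 to 0.8 (0.4 to 0.8 after Benjamini-Hochberg adjustment over the 8 shares).

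The ratio of B2m to the summed heavy chains was 1.36, 1.66 and 1.501 in the old libraries, against 1.61, 1.58 and 1.62 in the young ones. The mean ratio was 1.51 ± 0.153 in old and 1.603 ± 0.0228 in young (SD, n = 3 each; exact permutation p = 0.4). Old replicate 2 had the highest ratio of all 6 libraries and the lowest heavy chain sum of the old ones, and old replicate 1 had the lowest ratio and the highest sum.

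**Figure D3:**
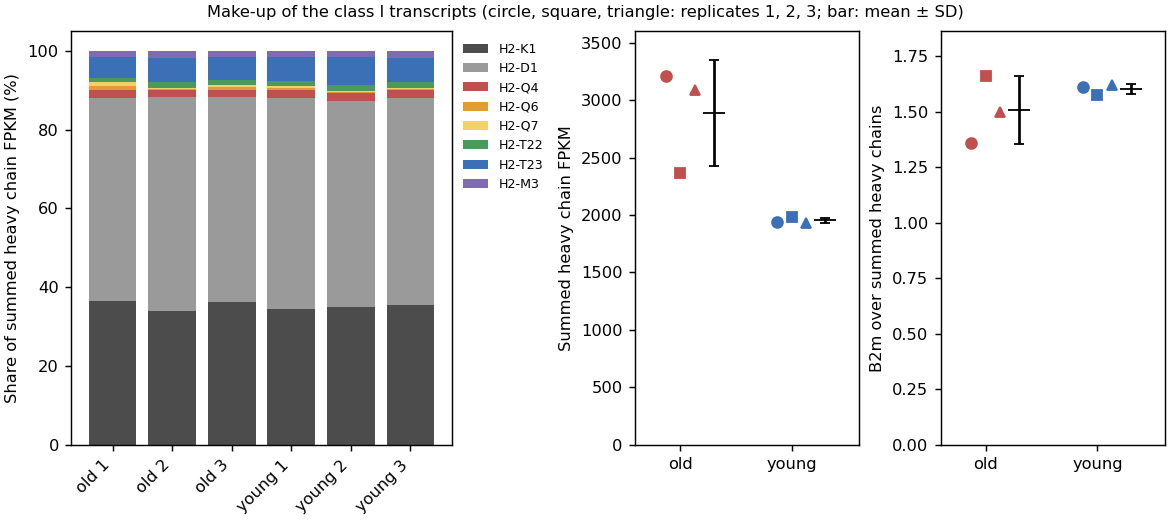
Left, share of each heavy chain gene in the summed heavy chain FPKM of each library (%, stacked bars); middle and right, summed heavy chain FPKM and the ratio of B2m to that sum, 1 point per library with mean ± SD (n = 3). H2-D1 and H2-K1 fill most of every bar, the sum separates old from young, and the ratio does not.

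Class I heavy chains resemble each other, so reads may be split between them in ways the table does not show. The sources used here give neither the read length, the strandedness nor the treatment of reads that match several genes. Of the 50-base words in annotated transcripts, 0% were shared with another gene for B2m, 0.576% for H2-M3, 9.63% for H2-K1, 12.8% for H2-D1 and 14.5% for H2-T23. The share was 26.5% for H2-Q7, 35.0% for H2-Q6, 36.4% for H2-Q4 and 53.5% for H2-T22. H2-Q6 shared most with H2-Q7 (13.9%) and H2-T22 with H2-T10 (31.2%). With 100-base words the highest share was 31.5% for H2-T22, followed by 14.1% for H2-Q4. H2-T22, H2-Q4, H2-Q6 and H2-Q7 thus shared the most sequence, while the levels of B2m and H2-M3 rest on sequence that is nearly or wholly their own. These shares do not give the size of an error in FPKM, which also depends on the levels of the sharing genes and on the treatment of shared reads. The reference genome carries the alleles of C57BL/6J, and the labels name no strain.

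The promoters of class I genes are known for a conserved upstream block in which a kappaB element, bound by NF-kappaB factors, lies next to an interferon-stimulated response element, bound by interferon regulatory factors (IRFs). The stretches that hold this block are shown because 7 of the 9 genes carry both elements in the same window of 250 bases before to 50 bases after the start site (RefSeq, GRCm38.p6). Each line gives the gene's coding strand from 5′ to 3′. Capitals mark matches, on either strand, to the IRF letters AANNGAAA and to the kappaB letters GGNNNTTCC. The kappaB letters were chosen to cover these elements after the promoters had been read.
B2m, chr2:122147540-122147579, plus strand: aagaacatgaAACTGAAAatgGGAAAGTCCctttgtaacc
H2-K1, chr17:34000420-34000468, minus strand: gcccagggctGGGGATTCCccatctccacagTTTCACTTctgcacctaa
H2-D1, chr17:35262913-35262961, plus strand: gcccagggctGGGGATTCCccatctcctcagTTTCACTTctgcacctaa
H2-Q4, chr17:35379434-35379481, plus strand: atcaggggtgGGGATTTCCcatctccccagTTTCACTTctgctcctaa
H2-Q6, chr17:35424667-35424715, plus strand: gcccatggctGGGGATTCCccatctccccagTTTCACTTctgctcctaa
H2-Q7, chr17:35439012-35439059, plus strand: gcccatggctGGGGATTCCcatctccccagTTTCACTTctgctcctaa
H2-M3, chr17:37270098-37270150, plus strand: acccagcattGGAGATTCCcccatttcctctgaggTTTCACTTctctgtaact
H2-T22, chr17:36042916-36042943, minus strand: attggcttagTTTCACTTtcgaatcccc
H2-T23, chr17:36032808-36032835, minus strand: atcctactgcTTTCTCTTtcataaagac

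The blocks of H2-K1 and H2-D1 differed at 1 of 49 bases, and each differed from that of H2-Q6 at 3 of 49 bases. H2-Q6 and H2-Q7, the genes with the largest log2 changes, carried the same 9-base and 8-base matches as H2-K1 and H2-D1. In B2m the order of the elements was reversed. The windows of H2-T22 and H2-T23 held an IRF match and no kappaB match, which says only that these letters are not in those windows. Over 32851 annotated promoter windows of the same length, 23.9% held an IRF match, 18.5% a kappaB match and 3.96% both. A CCAAT box, bound by nuclear factor Y, was found in all 9 class I windows and in 37.4% of all windows. The TGACG core of a cyclic AMP response element was found in 7 of the 9 (not in H2-Q6 or H2-T23) and in 20.8% of all windows. These matches describe sequence and not binding. The whole windows of B2m and H2-K1 follow as context for the light chain and for a classical heavy chain, with the same capitals.
B2m, chr2:122147437-122147736, plus strand: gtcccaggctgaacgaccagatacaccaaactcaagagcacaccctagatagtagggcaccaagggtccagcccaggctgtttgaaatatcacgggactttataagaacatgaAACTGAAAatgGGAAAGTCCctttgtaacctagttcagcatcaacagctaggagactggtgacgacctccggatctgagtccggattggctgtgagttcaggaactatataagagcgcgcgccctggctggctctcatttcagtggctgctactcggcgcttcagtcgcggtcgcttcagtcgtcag
H2-K1, chr17:34000298-34000597, minus strand: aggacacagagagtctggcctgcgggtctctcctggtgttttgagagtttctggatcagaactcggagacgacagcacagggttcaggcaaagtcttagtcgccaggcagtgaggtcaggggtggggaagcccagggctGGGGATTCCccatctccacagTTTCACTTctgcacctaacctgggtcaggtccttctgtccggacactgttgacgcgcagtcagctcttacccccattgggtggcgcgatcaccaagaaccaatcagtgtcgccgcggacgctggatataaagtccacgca

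The 8 heavy chain genes span 3278.5 kb of chromosome 17, from H2-K1 to H2-M3, and 97 other tested genes lie between them. Of these 97 genes 38 had a positive log2 change, with a median of -0.08, and 9.28% had all old libraries above all young ones. None of the 97 passed an adjusted p of 0.05 in limma, and at an unadjusted p of 0.05 there were 8 higher and 7 lower in old. The neighbours with no overlap and higher values in old included Tap1, Psmb8, H2-T24 and H2-T10, which are described next, and the complement gene C4b (10.3 FPKM in old and 4.76 FPKM in young libraries, log2 change 0.98, limma adjusted p = 0.172), which was picked out after its values were seen. All 8 heavy chain genes of this stretch had a positive log2 change, of 0.35 to 1.29.

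**Figure D4:**
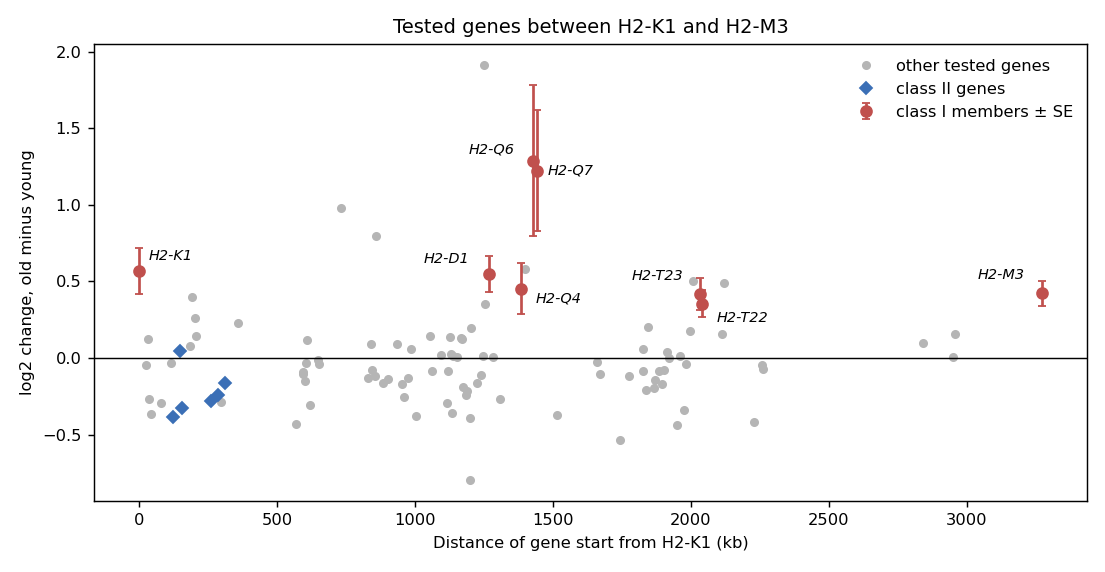
Log2 change, old minus young (vertical axis), of every tested gene between H2-K1 and H2-M3 by the distance of its start from that of H2-K1 (kb, horizontal axis), with the 8 heavy chain genes and their SE, the class II genes and all other genes in separate markers. All 8 heavy chain genes lie above 0, while 38 of the 97 other genes do.

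Of 23 other class I-like heavy chain genes, 20 were in the table, 7 were tested and 8 were at 0 in all libraries. Among the 7 tested, 4 had a positive and 3 a negative log2 change, with a median of 0.00, and none passed the adjusted limma threshold (2 higher and 2 lower at an unadjusted p of 0.05). H2-T24, a neighbour of the H2-T genes, had 37.5, 38.3 and 39.6 FPKM in the old libraries, against 23.7, 32.7 and 24.9 FPKM in the young ones, and old replicate 2 was not its lowest old library. H2-T10, annotated as a polymorphic pseudogene and close in sequence to H2-T22, averaged 3.11 FPKM in old and 1.94 FPKM in young libraries (log2 change 0.49, limma adjusted p = 0.179). Cd1d1, which encodes a lipid-presenting chain, averaged 1.20 FPKM in old and 2.36 FPKM in young libraries (log2 change -0.61, limma adjusted p = 0.144). The related H2-Q5 and H2-K2, annotated as pseudogenes and picked after their values were seen, had changes of opposite sign (log2 0.58 for H2-Q5 and -0.44 for H2-K2, limma adjusted p = 0.507 and 0.353). Without old replicate 2 they were 1.03 for H2-Q5 and -0.29 for H2-K2, and without old replicate 1 that of H2-Q5 was 0.26.

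A further list held genes that cut, transport and load the peptides of class I molecules. All 13 were tested, 11 had a positive log2 change, the median was 0.14 and none passed the adjusted limma threshold (3 higher and 0 lower at an unadjusted p of 0.05). Tap1, a subunit of the peptide transporter, had 35.4, 32.0 and 36.05 FPKM in the old libraries, against 24.3, 29.3 and 24.5 FPKM in the young ones, without overlap (log2 change 0.40, limma adjusted p = 0.172). Erap1, which trims peptides in the endoplasmic reticulum, averaged 16.1 FPKM in old and 12.9 FPKM in young libraries, and Psmb8, an immunoproteasome subunit, averaged 49.1 FPKM in old and 41.0 FPKM in young libraries. Their log2 changes were 0.30 for Erap1 and 0.26 for Psmb8 (limma adjusted p = 0.172 and 0.208). Old replicate 2 was the lowest old library for 4 of the 13 genes, beside 34.6% of all tested genes.

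Of 26 regulators of class I transcription and interferon signalling, 12 had a positive log2 change, the median was -0.02 and none passed the adjusted limma threshold (3 higher and 1 lower at an unadjusted p of 0.05). Nlrc5, the class I transactivator, had 13.2, 11.1 and 13.8 FPKM in the old libraries, against 8.97, 10.9 and 9.73 FPKM in the young ones. The groups did not overlap, with a log2 change of 0.33 (limma adjusted p = 0.226), and old replicate 2 stood just above young replicate 2. Usp18, an interferon-induced inhibitor of interferon receptor signalling, averaged 28.6 FPKM in old and 18.0 FPKM in young libraries (log2 change 0.65, limma adjusted p = 0.144). Nfya, a subunit of the CCAAT-binding factor, averaged 14.0 FPKM in old and 11.8 FPKM in young libraries (log2 change 0.22, limma adjusted p = 0.297).

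All 22 genes of a type I interferon response list had a positive log2 change, beside 53.1% of all tested genes. Their median was 0.36, and 16 were higher in old without overlap, beside 12.3% of all tested genes. None of the 22 passed the adjusted limma threshold. At an unadjusted limma p of 0.05, 15 were higher, beside 8.84% of all tested genes, and 0 lower. Limma voom on the recovered fragments, chosen after seeing the data, called 2 of the 22, Cmpk2 (adjusted p = 0.0327) and Rsad2 (adjusted p = 0.0361). Rsad2, which encodes the antiviral protein viperin, had 54.1, 48.8 and 56.5 FPKM in the old libraries, against 25.6, 34.3 and 22.8 FPKM in the young ones (log2 change 0.94, limma adjusted p = 0.0902). The average gene of this list stood at 0.26, 0.15 and 0.23 in old replicates 1 to 3, against -0.37, 0.03 and -0.30 in young replicates 1 to 3, on the log2 scale and relative to its mean over the 6 libraries. Its highest young library was replicate 2, which was not the highest young library for the average class I gene.

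A list of 11 macrophage receptor genes held receptors for class I molecules, and also Sirpa and Lrp1, which are not class I receptors. Of the 11, 6 were tested, 5 with a positive log2 change, and none passed the adjusted limma threshold (1 higher and 0 lower at an unadjusted p of 0.05). The 1 higher gene was Lrp1, which binds calreticulin and many other ligands and so was no class I receptor. Lrp1 averaged 181 FPKM in old and 134 FPKM in young libraries (log2 change 0.44, limma adjusted p = 0.217). Pira2 and Lilra6, paired receptors, had log2 changes of 0.31 and 0.33 with overlapping groups (limma adjusted p = 0.534 and 0.420). These values turned on single libraries: without old replicate 1 the changes were 0.10 for Pira2 and 0.20 for Lilra6, and without old replicate 2 they were 0.53 and 0.51. Genes of T and natural killer cells that recognise class I summed to 2.17 to 2.74 FPKM in old and 1.6 to 2.465 FPKM in young libraries, and 8 of 18 were at 0 in all libraries, Cd3e among them. The 1 tested gene of that list, Klra3, averaged 1.45 FPKM in old and 0.602 FPKM in young libraries (log2 change 0.62, limma adjusted p = 0.153). Klra3 reached the filter of 1 FPKM only through the old libraries, the group in which it was high.

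MHC class II genes, whose products present peptides to CD4 T cells, had another pattern across the libraries. Of 8 tested, 1 had a positive log2 change, the median was -0.30 and none passed the adjusted limma threshold (0 higher and 1 lower at an unadjusted p of 0.05). The average class II gene stood at 0.34, -0.55 and -0.23 in old replicates 1 to 3, against -0.22, 0.10 and 0.57 in young replicates 1 to 3, on the log2 scale and relative to its mean over the 6 libraries. Ciita, the class II transactivator, averaged 3.70 FPKM in old and 6.63 FPKM in young libraries (log2 change -0.67, limma adjusted p = 0.309), and H2-DMa and H2-DMb1, which load class II molecules, had log2 changes of -0.38 and -0.33. Without young replicate 3 the changes were -0.43 for Ciita, -0.19 for H2-DMa and -0.16 for H2-DMb1. The change of H2-DMa was -0.59 without young replicate 1, and that of H2-DMb1 was -0.52 without old replicate 1 and -0.20 without old replicate 2. Old replicate 2 was the lowest old library for 7 of these 8 class II genes, beside 34.6% of all tested genes. A low old replicate 2 was thus not particular to the class I genes. It was also the lowest old library for 14 of the 22 type I interferon response genes and 16 of the 26 regulators. The count was 5 of the 6 tested macrophage receptors and 1 of the 7 tested other class I-like heavy chains.

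**Figure D5:**
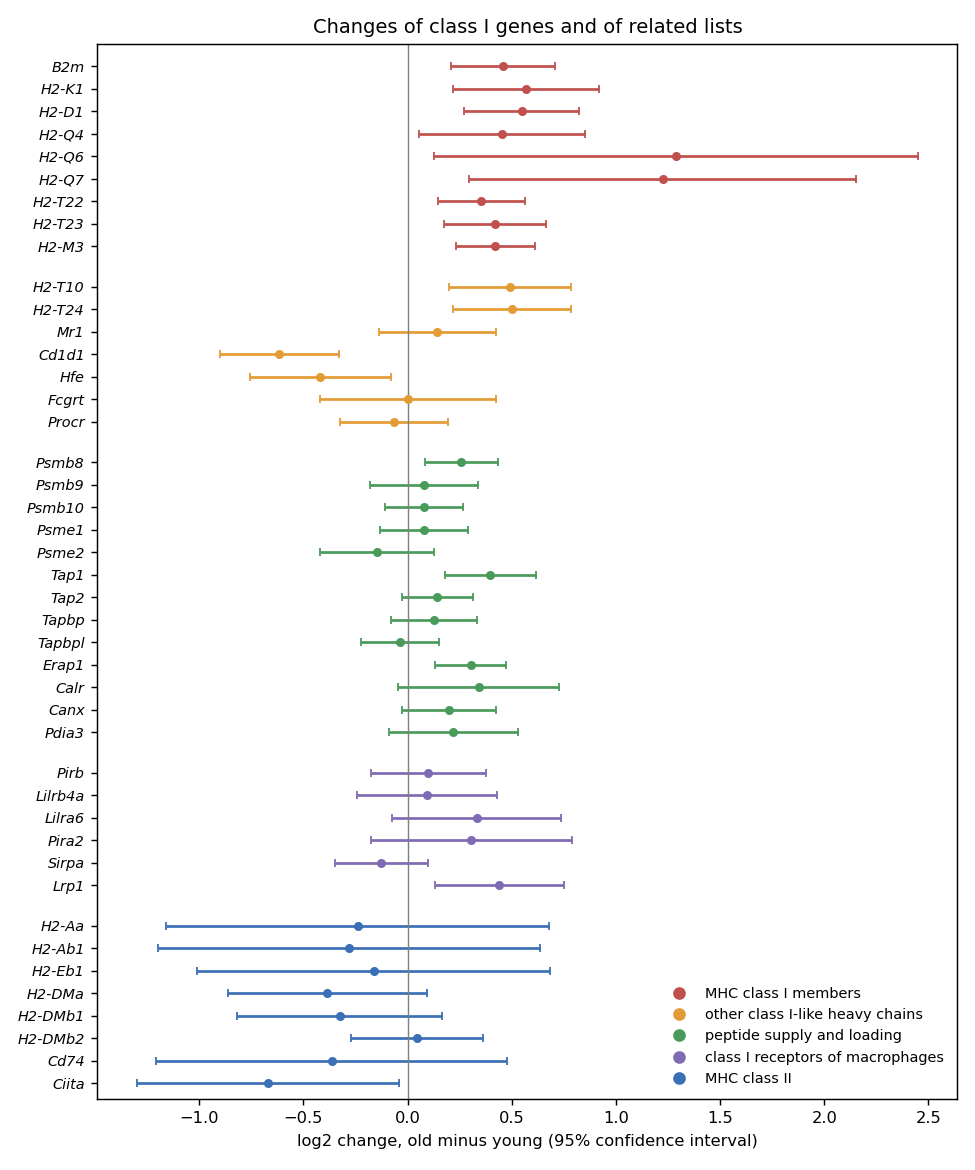
Log2 change, old minus young, with its 95% confidence interval (horizontal axis) for the tested genes of 5 lists (rows, coloured by list). The 9 class I genes all lie right of 0, with wide intervals for H2-Q6 and H2-Q7, and 7 of the 8 class II genes lie left of 0.

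Among 4238 other genes averaging 10 FPKM or more, the 5 whose log2 values followed the class I average most closely over the 6 libraries were Ddit3, Pik3ap1, Atf3, Tank and Dusp3, with Pearson r between 0.989 and 0.998. Each r is a description over 6 points that share library and depth. Ddit3, a stress-induced transcription factor gene, had 16.1, 12.7 and 15.1 FPKM in the old libraries, against 11.6, 11.7 and 11.1 FPKM in the young ones. Tank, which encodes an adaptor of innate immune signalling, had 21.1, 14.8 and 17.9 FPKM in the old libraries, against 13.5, 12.8 and 12.6 FPKM in the young ones. As for the class I average, old replicate 2 was the lowest old library for both and lay above all young libraries. This order follows from how both genes were picked, by their likeness to the class I average.

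Genes of the sort gate were present in every library. Adgre1 averaged 446 FPKM in old and 362 FPKM in young libraries, and Itgam, which encodes CD11b, averaged 47.4 FPKM in old and 35.9 FPKM in young libraries, each without overlap and neither past the adjusted limma threshold (adjusted p = 0.200 and 0.169). Of 12 tested gate and macrophage genes 8 had a positive and 4 a negative log2 change, with a median of 0.17, and none passed the adjusted limma threshold (5 higher and 2 lower at an unadjusted p of 0.05). Cx3cr1 averaged 63.6 FPKM in old and 89.1 FPKM in young libraries (log2 change -0.49, limma adjusted p = 0.225). Csf1r averaged 385 FPKM in old and 454 FPKM in young libraries (log2 change -0.23, and -0.11 without young replicate 3). Class I genes are made by nearly all cells, so other cell types in the sort bear on their levels. Summed markers of T and natural killer cells ranged from 2.53 to 4.395 FPKM in old and from 5.12 to 13.3 FPKM in young libraries (4 of 10 genes at 0 in all), and those of B cells from 19.6 to 22.6 FPKM in old and from 27.9 to 61.6 FPKM in young. Summed neutrophil markers ranged from 39.7 to 51.0 FPKM in old and from 34.7 to 42.7 FPKM in young libraries. Most of that sum was Csf3r, which averaged 40.4 FPKM in old and 34.8 FPKM in young libraries. Of the 4 tested neutrophil markers 2 had a positive and 2 a negative log2 change. The sums for dendritic cells were 21.7 to 43.0 FPKM in old and 41.3 to 54.8 FPKM in young, and those for endothelial cells 5.03 to 10.2 FPKM in old and 6.88 to 8.37 FPKM in young. For fibroblasts they were 1.07 to 2.31 FPKM in old and 2.96 to 5.71 FPKM in young, and for muscle 5.60 to 9.32 FPKM in old and 14.2 to 18.2 FPKM in young. The cardiac actin gene Actc1, of the muscle list, was the 1 marker that passed the test, with 0.138, 0.0359 and 0.202 FPKM in the old libraries, against 1.77, 2.13 and 1.81 FPKM in the young ones (log2 change -1.37, limma adjusted p = 0.0444). Actc1 reached the filter of 1 FPKM only through the young libraries, the group in which it was high. It fell below that filter when any 1 young library was left out. The call of Actc1 was kept in 6 and lost in 7 of the 13 alternatives in which Actc1 had a value, with adjusted p-values of 0.00643 to 0.169 and log2 changes of -4.08 to -1.31. It was lost with either smaller pseudocount, without a filter, with a replicate block (adjusted p = 0.169) and without any 1 of the old replicates. The defining markers Cd3e, Cd3g, Cd8b1 and Ly6g were at 0 in all 6 libraries. Single genes also made up most of other sums. For T and natural killer cells it was Cd4 (mean 2.8 FPKM in old and 8.1 FPKM in young libraries). For B cells it was Ighm (15.7 and 36.2 FPKM), and for dendritic cells Itgax (24.5 and 37.7 FPKM). A sum that rests mostly on 1 gene does not measure the content of a cell type. T and natural killer cell, B cell, fibroblast and muscle marker sums were lower in all old than in all young libraries, and the part of these cells in the class I values was not tested.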

How the data were processed

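RNA of sorted muscle macrophages was measured in 3 old and 3 young libraries. The authors deposited FPKM per gene for 54966 features on GRCm38.p6, per the submitters' processing notes. Aligner, counter and annotation were not given in the sources used here. Identifiers were matched to GENCODE M21, which held 54495 of them (99.14%). FPKM multiplied by exon length gave whole fragments (tolerance 0.02, multiples below 200) for 97.5% to 97.58% of values per library.

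Genes averaging 1 FPKM or more were compared, old against young, on the log2(FPKM + 1) scale by limma 3.58.1 (R 4.3.3) with a trend of the variance on the mean. Two-sided p-values were adjusted by the Benjamini-Hochberg method over all genes tested, with a threshold of 0.05. The log2(FPKM + 1) scale understates the change of low genes. Limma was tested on simulated data. Single ratios and shares were compared by exact two-sided permutation tests (scipy 1.17.1), which cannot go below p = 0.1. The exact p of the summed heavy chains is not reported, since the members and the lists were chosen with earlier results of these data known. Named genes were the 9 members, the 3 genes of smallest p in each list, every list gene passing the test, gate and cell type markers, and the 5 genes most like the members. Other names were picked after seeing values and are marked or shown for context. Promoter windows came from RefSeq tables for GRCm38.p6 and matched all 9 genes by symbol, and the first of the H2-K1 windows was used. Alternatives were other pseudocounts, filters, scalings, weights, a replicate block, limma voom on recovered fragments and leaving out each library.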

Additional observations from a re-analysis of the deposited data

How the results depend on the processing

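None of the 9 class I genes passed the adjusted threshold under any of the 17 alternatives. The log2 changes were all above 0 (0.002755 to 1.859, limma adjusted p 0.0564 to 0.997). The lowest was B2m after quantile normalization, where almost nothing was left of the 0.4575 reported. With FPKM rescaled to the same total in every library, the log2 change was 0.3956 for B2m, 0.5077 for H2-K1 and 1.291 for H2-Q6. These were 0.4575, 0.5692 and 1.289 in the analysis reported. With each library scaled by its median ratio to the gene averages, they were 0.4562, 0.5679 and 1.287. With array weights H2-M3 had the lowest adjusted p, 0.0564. The count of all genes called, 4 in the analysis reported, was 0 with a pseudocount of 0.1 or 0.01, without a filter, with a minimum of 5 FPKM and with a replicate block, 50 with array weights, 41 with limma voom on recovered fragments (added after seeing the data), and 0 to 14 when 1 library was left out (14 without young replicate 1). Voom called 2 genes of the pathway lists, where the reported count was 0. Causes were not tested. The share of H2-D1 in the heavy chain sum (old minus young, -0.13 percentage points) was 0.06709 points with H2-Q6 left out of the sum, and between -0.9527 and 0.4604 points when 1 library was left out (positive without old replicate 1, old replicate 3 or young replicate 1). The share of H2-K1, 0.4561 points higher in old, ranged from -0.005096 (without old replicate 1) to 1.23 points. The log2 ratio of the heavy chain sums, 0.5646, ranged from 0.4806 to 0.6898. The deviations of same-numbered libraries from their group means had correlations of 0.032, 0.054 and 0.042. Values this small cannot decide whether the numbers pair the libraries. Each library correlated best with its own number, a hint from the data only. With the replicate block 0 genes were called. With 3 libraries a group, an exact test cannot pass the threshold. The fewest fragments behind a class I value were 207, for H2-Q6 in young replicate 3.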
